A study of Mus musculus with 16 samples.

Results

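The genes described here encode the nuclear subunits of the mitochondrial complexes of oxidative phosphorylation, measured in mouse embryonic hearts. They were chosen by gene symbol and a count minimum, with earlier results of these data known. The symbols were those that begin with Ndufa, Ndufb, Ndufc, Ndufs or Ndufv and a digit, and the genes Sdha to Sdhd. Symbols that begin with Uqcr, Cyc1, Cox4 to Cox8, and Atp5 were added. Of 37991 genes in the count table, 89 rows matched, and 85 of them had no pseudogene suffix and reached a mean of 10 raw counts per library. Complex I holds 37 of the 85 genes, complex II 4, complex III 9, complex IV 17 and complex V 18. The rows left out were a second Ndufb8 row, Cox8c, the pseudogene Atp5l-ps1 and Cox7b2, with mean counts of 0, 0.188, 1.62 and 3.31. Just above the minimum were Atp5l2 with 11.7 and Ndufa4l2 with 15.3 counts per library. The latter reached it only through the genotype in which it was highest. All 85 passed the filter on low counts. A few belong by name more than by function: Cox4nb is a subunit of a membrane complex of the endoplasmic reticulum, and Cox7a2l takes part in joining complexes III and IV.

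Bulk RNA sequencing was done on embryonic hearts at the E10.5 stage, in 16 libraries of 4 genotypes with 4 libraries each. One group was wildtype (WT), and Tbx5 del/+ and Tbx5 CreERT2/+ embryos each carried a single altered allele. Embryos with both altered alleles, Tbx5 CreERT2/del, made up the last group, and groups are named by these alleles below. The transcription factor TBX5, of the T-box family, acts in heart development, del and CreERT2 are altered alleles of it, and CreERT2 is the usual name of a Cre recombinase that tamoxifen activates. What the del allele lacks, the strain, any tamoxifen and the number of hearts in a library are not stated in the sources read. The replicates are 4 separate samples per genotype; since no source says whether they are separate embryos, p-values measure the spread between these samples only.

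Oxidative phosphorylation takes place in the inner mitochondrial membrane. Complex I and complex II pass electrons from NADH and succinate to ubiquinone, complex III passes them on to cytochrome c, and complex IV hands them to oxygen. Complexes I, III and IV pump protons, and complex V, the ATP synthase, uses the returning protons to make ATP. Complex II is made by nuclear genes alone, while the other complexes also contain subunits encoded by mitochondrial DNA. The heart muscle is rich in mitochondria, and several complex IV subunits exist as a widely expressed form and a form typical of adult heart and skeletal muscle.

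The libraries held from 21436305 to 42731841 counts, of which mitochondrial ribosomal RNA took 42.3% to 78.3%. The 85 genes took 1.77% to 3.29% of the remaining counts. Heart muscle markers were abundant in every library, with Tnnt2 at 660 to 2027 CPM (counts scaled to library size with TMM factors) and 7 markers summing to 10424 to 15707 CPM. Genes of primitive red cells were present too (Hbb-y from 681 to 3311 CPM), and the leukocyte marker Ptprc did not exceed 1.45 CPM. Tbx5 itself ranged from 13.7 to 25.7 CPM in WT, from 24.8 to 41.5 in del/+, from 18.1 to 39.2 in CreERT2/+ and from 20.3 to 24.2 in CreERT2/del. This sum over the gene does not check the genotypes, since the part that the alleles lack is not known here. In bulk RNA, fewer cells of a type and less RNA per cell cannot be told apart.

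Levels per length (RPKM, from CPM and the deposited gene length) spanned a wide range within each complex. In complex I, Ndufa4 was highest at 278 ± 91.8 RPKM (SD over 16 libraries), and Ndufa4l2 was lowest at 0.51 ± 0.391. Ndufa4 carries a complex I name but is now placed with complex IV, and Ndufa4l2 is its relative, known as a gene induced by low oxygen. In complex II the membrane anchors stood at both ends, with Sdhd at 61.2 ± 9.71 and Sdhc at 11.5 ± 1.79 RPKM. The small subunit Uqcr10 led complex III at 259.7 ± 97.3 RPKM, and the Rieske iron-sulfur protein Uqcrfs1 was lowest at 26.0 ± 3.11. In complex IV, Cox6b1 was highest at 352 ± 138 RPKM and Cox4i2 lowest at 1.53 ± 0.888. Complex V ran from Atp5l, subunit g of the membrane part, at 389 ± 152 RPKM down to its paralog Atp5l2 at 0.973. Per library and without division by length, the catalytic beta subunit Atp5b held the largest share of the RNA of the 85 genes, 18.8% ± 2.14 in WT (SD, n = 4).

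Of the alternative forms of complex IV subunits, the muscle forms were present beside the common ones but below them at this stage. The muscle form Cox6a2 stood at 48.1% ± 9.20 of the level per length of Cox6a1 in WT (SD, n = 4). Cox7a1, the muscle form of Cox7a2, stood at 18.0% to 22.2% in the WT libraries, and Cox8b, that of Cox8a, at 2.81% ± 0.949. Between genotypes these ratios overlapped: Cox6a2 was at 57.8% ± 13.3 of Cox6a1 in del/+ hearts, 51.4% ± 5.37 in CreERT2/del hearts and 47.7% ± 10.6 in CreERT2/+ hearts. The proteolipid (subunit c) genes of complex V, Atp5g1, Atp5g2 and Atp5g3, which encode the same mature protein, had 41.9 ± 13.7, 145 ± 49.4 and 76.0 ± 13.9 RPKM over the 16 libraries. Cox6b2, the testis form of Cox6b1, was at 0.799% ± 0.159 of it in WT.

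**Figure D1:**
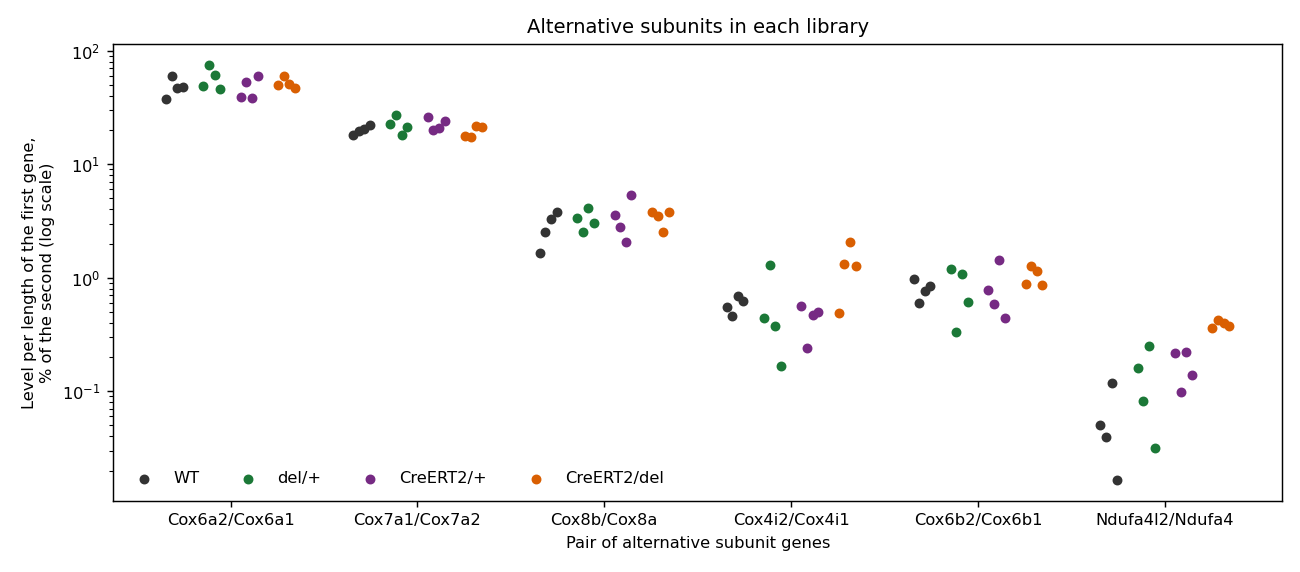
Level per length of one subunit gene as a percentage of its alternative, on a log axis, for 6 pairs; each point is a library, coloured by genotype. Within each pair the genotypes overlap, except that the 4 CreERT2/del libraries lie above all 12 others for Ndufa4l2/Ndufa4 (0.364% to 0.422% against at most 0.251%). Ndufa4l2 had 1 to 43 reads per library, and how often genes or pairs separate in this way was not counted.

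The promoters of 3 of the genes are printed because they show, in single genes of complexes II, IV and V, binding motifs known from mitochondrial genes. Sequences are from RefSeq, build GRCm38.p6, 5′ to 3′ on the gene's strand, from 250 bases before to 50 after the annotated start. Capitals mark the motifs searched on both strands: GCATGCG for NRF1, CCGGAAG for GABP (an ETS factor), AAGATGG for YY1 and AGGTGTG for T-box factors. The T-box letters occur in none of these 3. Sdhb encodes the iron-sulfur subunit of complex II (chr4:140961021-140961320, plus strand), Cox6a1 a complex IV subunit (chr5:115348909-115349208, minus strand) and Atp5j coupling factor 6 of complex V (chr16:84834927-84835226, minus strand).
Sdhb: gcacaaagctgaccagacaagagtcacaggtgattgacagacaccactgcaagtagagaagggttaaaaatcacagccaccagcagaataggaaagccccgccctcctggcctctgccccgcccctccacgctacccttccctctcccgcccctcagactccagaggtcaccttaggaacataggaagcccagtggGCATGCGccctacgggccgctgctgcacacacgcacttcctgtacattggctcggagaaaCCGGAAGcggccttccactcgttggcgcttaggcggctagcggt
Cox6a1: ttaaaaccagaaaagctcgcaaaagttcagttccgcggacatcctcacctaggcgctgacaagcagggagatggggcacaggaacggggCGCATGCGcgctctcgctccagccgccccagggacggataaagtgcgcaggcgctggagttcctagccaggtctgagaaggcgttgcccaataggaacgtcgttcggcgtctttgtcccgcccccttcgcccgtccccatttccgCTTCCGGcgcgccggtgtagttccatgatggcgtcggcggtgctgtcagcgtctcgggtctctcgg
Atp5j: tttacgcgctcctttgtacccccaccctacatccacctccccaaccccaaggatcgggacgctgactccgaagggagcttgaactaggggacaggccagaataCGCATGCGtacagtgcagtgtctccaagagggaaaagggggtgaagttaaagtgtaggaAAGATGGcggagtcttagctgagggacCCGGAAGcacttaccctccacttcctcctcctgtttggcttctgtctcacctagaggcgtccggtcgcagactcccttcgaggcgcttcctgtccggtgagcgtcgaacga
The NRF1 match in Sdhb starts 54 bases before the start and its GABP match 7 bases after it. In Cox6a1 and Atp5j the NRF1 letters match on both strands, shifted by 1 base, so the overlapping matches form 1 longer run of capitals. No other motifs overlapped in these promoters. The table holds another promoter for Atp5j with none of these motifs; the one printed, chosen for its matches, holds all but the T-box motif.

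Promoters were found for 68 of the 85 genes, 74 promoters in all. The NRF1 letters were in 14.9% of them, against 3.58% of all 32851 promoters and 6.05% of the promoters of the genes tested. For GABP the shares were 21.6%, 8.86% and 16.5%, and for YY1 17.6%, 6.34% and 6.69%. The T-box letters were in 1 of the 74 promoters (1.35%), against 5.84% of all promoters and 4.29% of those of tested genes. These are counts of letters in a window, not sites, and base composition was not matched between the sets.

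The RNA of the 85 genes differed widely between libraries of 1 genotype. Their summed level was 8041, 8251, 10137 and 5607 CPM in WT 1 to 4, and 8620, 8146, 9031 and 8451 CPM in del/+ 1 to 4. It was 8791, 8824, 4210 and 12677 CPM in CreERT2/+ 1 to 4, and 8892, 7592, 6043 and 8858 CPM in CreERT2/del 1 to 4. CreERT2/+ held both the lowest and the highest library, and the 4 del/+ libraries lay within the range of WT. The group means were 8009 ± 1858 in WT, 8562 ± 369 in del/+, 8625 ± 3463 in CreERT2/+ and 7846 ± 1346 CPM in CreERT2/del (SD, n = 4).

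**Figure D2:**
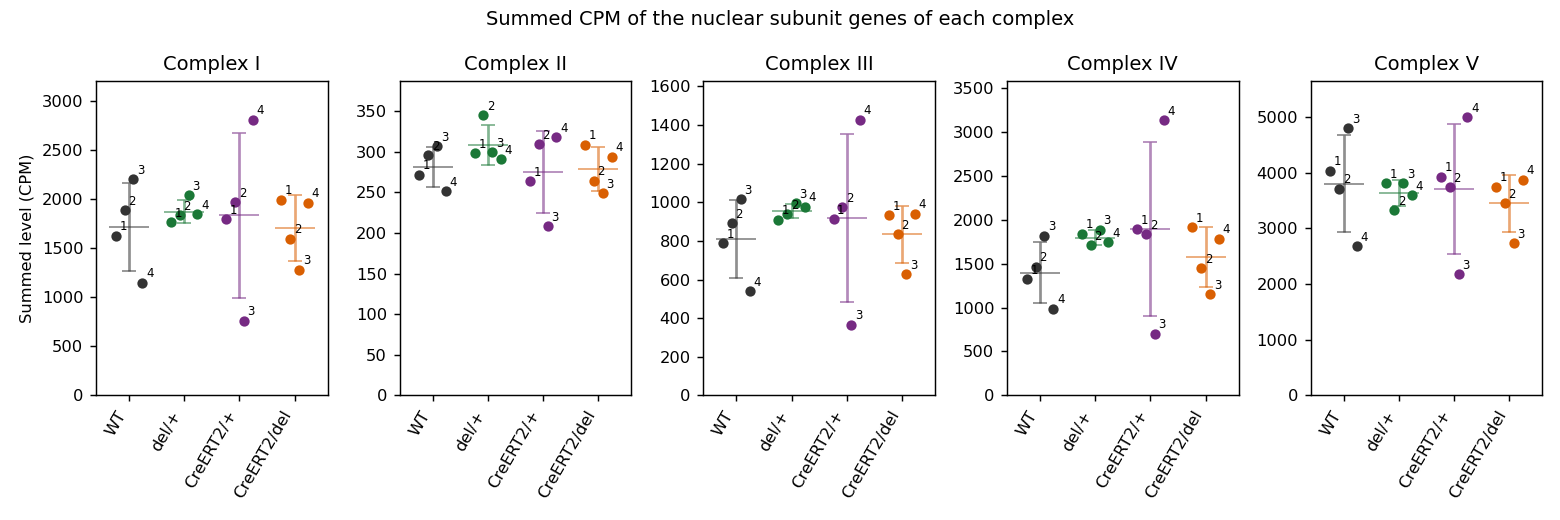
Summed CPM of the subunit genes of complexes I to V in each library, numbered by replicate, with the mean and SD of each genotype (n = 4). In complexes I, III, IV and V, CreERT2/+ 3 is the lowest and CreERT2/+ 4 the highest of the 16 libraries. Over the 16 libraries complex II has the narrowest range, 208 to 345 CPM, and also the smallest sum.

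Almost all of the genes moved together in 4 libraries that stood apart. CreERT2/+ 3 was the lowest of the 16 libraries for 70 of the 85 genes (82.4%, against 18.2% of all genes tested), and CreERT2/+ 4 was the highest for 59 (69.4%, against 11%). The median deviation of the 85 genes from each gene's own median over the libraries was −1.22 on the log2 scale in CreERT2/+ 3, −0.70 in WT 4 and −0.49 in CreERT2/del 3. It was +0.68 in CreERT2/+ 4 and between −0.20 and 0.24 in each of the other 12 libraries. In these 4 libraries 83, 83, 82 and 6 of the 85 genes lay below their own median. Elsewhere the genes could be split, with 36, 45 and 42 below in del/+ 1, del/+ 2 and del/+ 4.

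**Figure D3:**
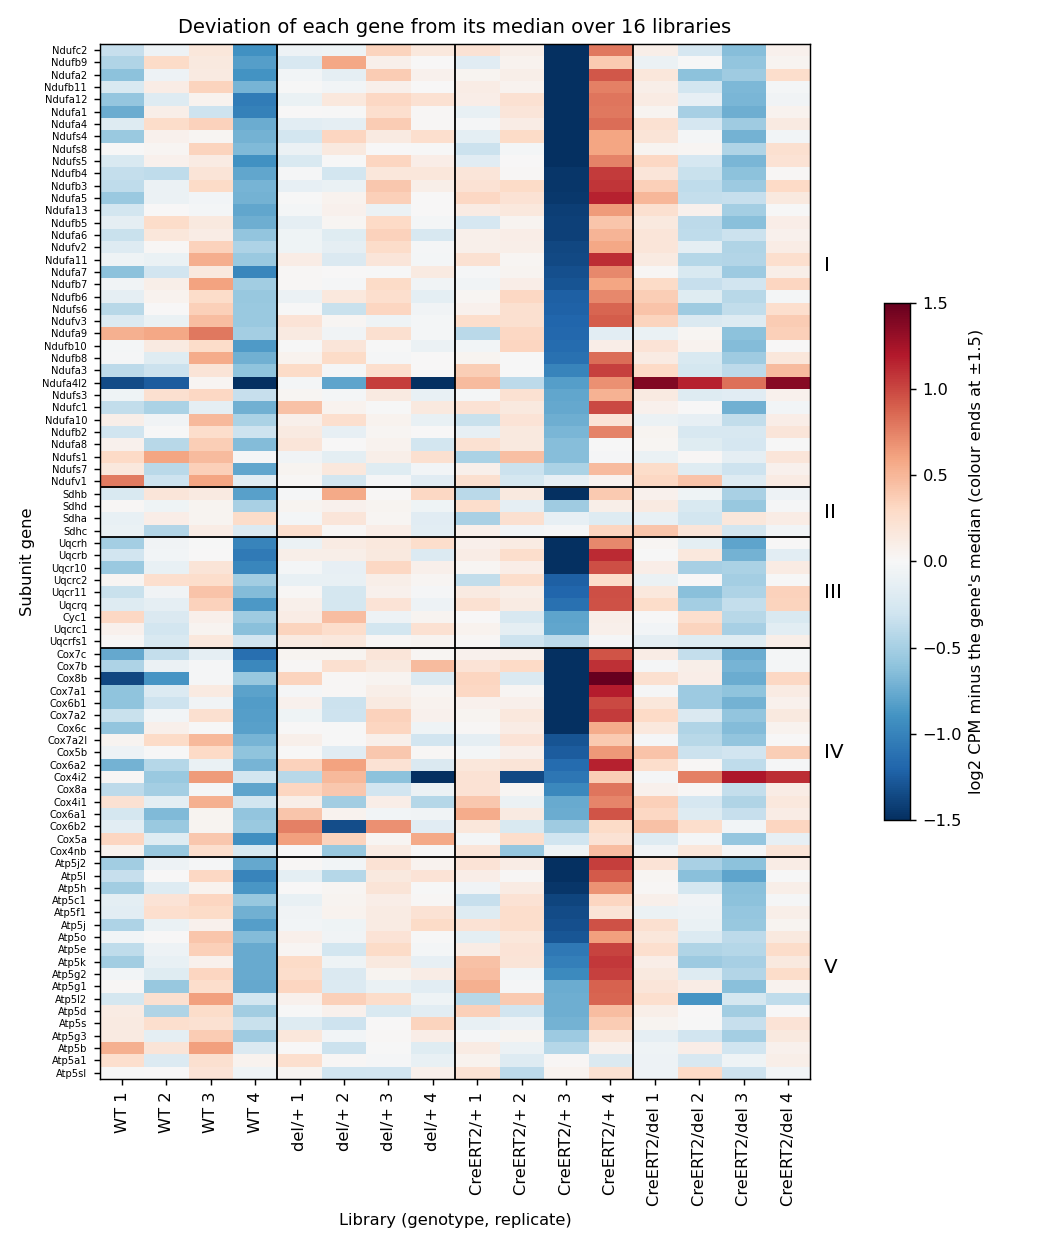
Colour gives log2 CPM minus the gene's median over 16 libraries, for 84 of the 85 genes (rows, grouped by complex I to V) and 16 libraries (columns, by genotype). The columns CreERT2/+ 3 and WT 4 are low and CreERT2/+ 4 is high across nearly all rows; Ndufa4l2 is high in all 4 CreERT2/del libraries.

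The complexes took part in this to different degrees. In CreERT2/+ 3 the median deviation was −1.32 for complex I, −1.19 for complex III, −1.25 for complex IV and −0.99 for complex V, and −0.33 for complex II. The 4 complex II genes differed there, with −1.57 for Sdhb, −0.54 for Sdhd, −0.12 for Sdha and −0.01 for Sdhc. In CreERT2/+ 4 it was 0.72, 0.72, 0.81 and 0.65 for the same complexes and 0.21 for complex II. The median SD within genotypes was 0.243 on the log2 scale for the 4 complex II genes, against 0.511, 0.55, 0.547 and 0.485 for complexes I, III, IV and V and 0.446 for all genes tested. The steadiest single genes were Uqcrfs1 (0.162), the alpha subunit Atp5a1 (0.163) and Sdha, the flavoprotein of complex II (0.211), and the least steady were Ndufa4l2 (0.839) and Cox4i2 (0.786).

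Other features of the libraries moved with these values. The deposited length of the 85 genes had a median of 1237 bases, against 3548 for all genes tested, and 40% of them were shorter than 1000 bases, against 8.26%. Non-member genes under 1000 bases had a median deviation of −0.61 in CreERT2/+ 3, −0.34 in WT 4, −0.15 in CreERT2/del 3 and 0.41 in CreERT2/+ 4. Non-member genes over 4000 bases moved the opposite way, by 0.34, 0.24, 0.17 and −0.08. Among the 85, the median within-genotype SD was 0.563 for genes under 1000 bases, 0.498 from 1000 to 2000 bases and 0.347 for longer ones. The 76 cytosolic ribosomal protein genes, also short and abundant, moved by −1.63, −0.93, −0.49 and 0.62 in the same order. The 13 subunits encoded in mitochondrial DNA moved by −1.60, −0.58, −0.59 and 1.11, and the share of mitochondrial ribosomal RNA was 42.3%, 60.6%, 53.6% and 77.3%. That share did not follow the subunit genes in every library: it was highest, 78.3%, in CreERT2/+ 1, where their median deviation was 0.08, and 74.9% in CreERT2/del 2, where it was −0.20. Some markers of cell types were low in the same libraries. CreERT2/+ 3 and WT 4 had the lowest levels of the red cell genes Hbb-y (681 and 772 CPM) and Hbb-bh1 (311 and 288 CPM) and of the heart muscle gene Tnnt2 (660 and 1009 CPM). The heart muscle markers differed there, however. Myl7 was low too (525 and 545 CPM, median 847 over all libraries). Ttn was high (11478 and 12880 CPM, median 9378), and so was Myh6 (654 and 554 CPM, median 442). The part of gene length, mitochondrial content or cell composition in the levels of the 85 genes was not tested.

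None of the 85 genes passed an adjusted p of 0.05 in any of the 7 comparisons made (edgeR's quasi-likelihood test, Benjamini-Hochberg over 14612 genes). For CreERT2/del against WT 0.335% of all genes passed, for del/+ against WT 0.116% and for CreERT2/+ against WT 0.0342%. Among the altered genotypes the share was 0.0205% for CreERT2/del against del/+, 0.0753% for CreERT2/del against CreERT2/+ and 0% for CreERT2/+ against del/+. For the interaction, which sets the double change against the sum of the single ones, it was 0.0411%. A count of 0 among 85 genes is near these background shares. The standard error of a member's log2 change had a median of 0.301 in each comparison with WT and ranged up to 0.709, so small differences were not detectable here. DESeq2 called 1 of the 85 genes, Ndufa4l2, in CreERT2/del against WT and 0 in the other comparisons.

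In CreERT2/del hearts, which carry both altered alleles, the 85 genes lay close to WT apart from Ndufa4l2. Their log2 changes against WT had a median of 0.08, with 53 higher and 32 lower, beside −0.0032 for all genes. By complex the medians were 0.02, −0.02, 0.11, 0.20 and −0.05 for complexes I to V. Without WT 4 the median of the 85 genes was −0.06, and without WT 3 it was 0.23. An unadjusted p under 0.05 was reached by 1 gene on the higher side, where 3.13% of all genes reached it, and by 0 on the lower side, where 2.53% did.

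Ndufa4l2 (chr10:126951995-126954208 in mm9, identifier ENSMUSG00000040280) was that gene, and its level was low throughout. It was at 1.13, 0.942, 0.739 and 1.11 CPM in CreERT2/del 1 to 4, and at 0.117, 0.129, 0.401 and 0.0263 CPM in WT 1 to 4. In del/+ 1 to 4 it was at 0.381, 0.200, 0.868 and 0.0860 CPM, and in CreERT2/+ 1 to 4 at 0.565, 0.284, 0.193 and 0.666 CPM. All 4 CreERT2/del libraries were above all 4 of WT, while the single-allele genotypes overlapped WT. Such separation upward was seen in 1 of 85 genes and in 2.31% of all genes, and separation downward in 0 and in 1.96%. Behind these levels are 23, 28, 43 and 42 reads in CreERT2/del and 4, 5, 15 and 1 in WT. Ndufa4l2 reached the count minimum of the group only through CreERT2/del. Its separation and p-values therefore describe a gene kept through its highest genotype. Against WT, edgeR gave a log2 change of 2.51 ± 0.69 (SE), with an adjusted p = 0.179, which did not pass. With DESeq2 the adjusted p was 0.0217, and without the filter on low counts edgeR gave 0.0382; over the alternatives that kept the gene it ranged from 0.0217 to 0.465. Without WT 3, the WT library with the most reads of it, the log2 change was 3.38. Against del/+ the log2 change was 1.32 ± 0.66 and against CreERT2/+ 1.24 ± 0.66, and neither passed (edgeR adjusted p = 0.985 and 0.999). The CreERT2/del libraries overlapped del/+ and lay above all of CreERT2/+, which 1.24% of all genes did. Separation downward from CreERT2/+ was found for 0 of the 85 genes, against 1.25% of all genes. In the authors' deposited table, Ndufa4l2 had the lowest adjusted p of the 84 listed genes of the group in this comparison, 0.436.

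Relative to Ndufa4 the same order held. The ratio of Ndufa4l2 to Ndufa4 per length was 0.392% ± 0.0255 in CreERT2/del (SD, n = 4) and 0.0563% ± 0.0437 in WT. It was 0.131% ± 0.0955 in del/+ and 0.169% ± 0.0598 in CreERT2/+. Ndufa4 itself was at 129 ± 30.2 CPM in CreERT2/del and 135 ± 42.9 in WT. The ratio thus rests on the same few Ndufa4l2 reads and is no separate evidence. Summed levels of 5 epicardial markers were 46.6 to 61.0 CPM in CreERT2/del and 77.8 to 95.8 in WT, all 5 with lower means in CreERT2/del and none past the threshold (lowest adjusted p = 0.0615 for Aldh1a2, edgeR). Summed leukocyte markers were 2.01 to 3.71 CPM against 0.496 to 3.39. Of these, Ptprc was at 1.01 to 1.45 CPM in the 4 CreERT2/del libraries and at most 0.886 CPM in the other 12, without overlap, as for the ratio of Ndufa4l2 to Ndufa4. Its log2 change against WT was 1.81 ± 0.72 (edgeR adjusted p = 0.619). The other leukocyte markers overlapped. Csf1r was at 0.343 to 1.87 CPM in CreERT2/del and 0.321 to 2.16 in WT, and Cd68 at 0.441 to 0.619 and 0.175 to 0.684. Ptprc was singled out after its values were seen, and the share of all genes that separate in this way was not counted. The part of cell composition in the Ndufa4l2 values was not tested.

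Cox4i2 (chr2:152579909-152590773 in mm9), the lung form of the complex IV subunit Cox4i1 and likewise known as oxygen-responsive, had the lowest p of complex IV in this comparison. Its level was 1.08, 1.88, 2.61 and 2.42 CPM in CreERT2/del 1 to 4, against 1.11, 0.720, 1.74 and 0.894 in WT 1 to 4. It was at 0.800, 1.56, 0.694 and 0.215 CPM in del/+ 1 to 4 and at 1.28, 0.390, 0.482 and 1.43 in CreERT2/+ 1 to 4. In CreERT2/del, replicates 2 to 4 were above every other library, and replicate 1 lay within the WT range. The log2 change against WT was 0.85 ± 0.49 (edgeR adjusted p = 0.981), that against del/+ 1.30 ± 0.50 (adjusted p = 0.904) and that against CreERT2/+ 1.21 ± 0.50 (adjusted p = 0.999). Cox4i2 stood at 1.28% ± 0.650 of Cox4i1 per length in CreERT2/del and at 0.584% ± 0.099 in WT (SD, n = 4).

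The other genes with the lowest p of their complex in CreERT2/del against WT had smaller differences. Atp5b had a log2 change of −0.36 ± 0.24, Sdhc 0.24 ± 0.19 and the core protein Uqcrc2 of complex III −0.18 ± 0.27 (edgeR adjusted p = 1 each). Atp5b was at 1155, 1297, 981 and 1260 CPM in CreERT2/del 1 to 4 and at 1752, 1378, 1848 and 1042 CPM in WT 1 to 4, so the groups overlapped through WT 4.

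In del/+ hearts, most of the genes had a slightly higher mean than in WT. The median log2 change was 0.15, with 70 of 85 genes (82.4%) higher, beside −0.02 and 47.8% for all genes. Complex IV had the largest median of the complexes, 0.41, and complexes I, II, III and V had 0.11, 0.17, 0.20 and 0.10. The size of this median depended on single WT libraries. It was 0.01 without WT 4, in which the genes were low, and 0.31 without WT 3, in which they were high. Without WT 4, complex IV had 0.22, still the highest, against −0.02, 0.10, 0.10 and −0.06 for complexes I, II, III and V. On the higher side 2 genes reached an unadjusted p under 0.05 (3.13% of all genes did), and on the lower side 0 (2.68%).

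Those 2 genes were Cox6a2 and Ndufc1, an accessory subunit in the membrane arm of complex I. Cox6a2 was at 82.0, 97.4, 74.8 and 55.3 CPM in del/+ 1 to 4 and at 39.3, 47.7, 60.2 and 39.6 in WT 1 to 4, overlapping in 1 library of each. Its log2 change was 0.73 ± 0.32 (edgeR adjusted p = 0.821). Ndufc1 was at 57.5, 44.0, 42.4 and 47.1 CPM in del/+ 1 to 4 and at 32.8, 30.5, 38.9 and 25.9 in WT 1 to 4, without overlap. The log2 difference was 0.58 ± 0.27 (edgeR adjusted p = 0.841). Groups of libraries that did not overlap, with del/+ higher, were found for 4 of 85 genes, against 2.18% of all genes: Ndufc1, Ndufa5, Cox7c and Cox7b. Downward it was 0, against 1.88% of all genes. Cox7c, a small complex IV subunit, was at 324, 326, 357 and 323 CPM in del/+ 1 to 4 and at 186, 246, 288 and 144 in WT 1 to 4, and had a log2 change of 0.62 ± 0.35 (edgeR adjusted p = 0.916). Atp5b had a lower mean in del/+, with a log2 change of −0.44 ± 0.24 (edgeR adjusted p = 0.91), and Sdhb and Uqcrc1, a core protein of complex III, had 0.37 ± 0.30 and 0.33 ± 0.23 (adjusted p = 0.959 and 0.931).

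The CreERT2/+ group held the lowest and the highest library, and its means varied with both. The median log2 change against WT was 0.17, with 62 of 85 genes higher, and medians of 0.14, 0.00, 0.28, 0.38 and 0.07 for complexes I to V. Without CreERT2/+ 4 the median of the 85 genes was −0.07, and without CreERT2/+ 3 it was 0.39. For complex IV these values were 0.10 and 0.68. An unadjusted p under 0.05 was reached by 5 genes on the higher side (2.44% of all genes) and by 2 on the lower (1.27%), and the libraries of 0 genes separated in either direction, against 1.05% of all genes upward and 0.602% downward. The higher 5 were Ndufc1, Cox6a1, Cox6a2, Cox8b and Atp5k, subunit e of complex V, with log2 changes of 0.69 ± 0.27, 0.69 ± 0.28, 0.77 ± 0.32, 1.02 ± 0.45 and 0.64 ± 0.30 (edgeR adjusted p = 1 each). The lower 2 were Ndufa9, an accessory subunit of complex I, and Ndufs1, its largest core subunit, with −0.69 ± 0.29 and −0.46 ± 0.22 (edgeR adjusted p = 1 each). Sdhc and Uqcrb, a small subunit of complex III, had the lowest p of their complexes, with 0.24 ± 0.19 and 0.54 ± 0.36 (edgeR adjusted p = 1 each).

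**Figure D4:**
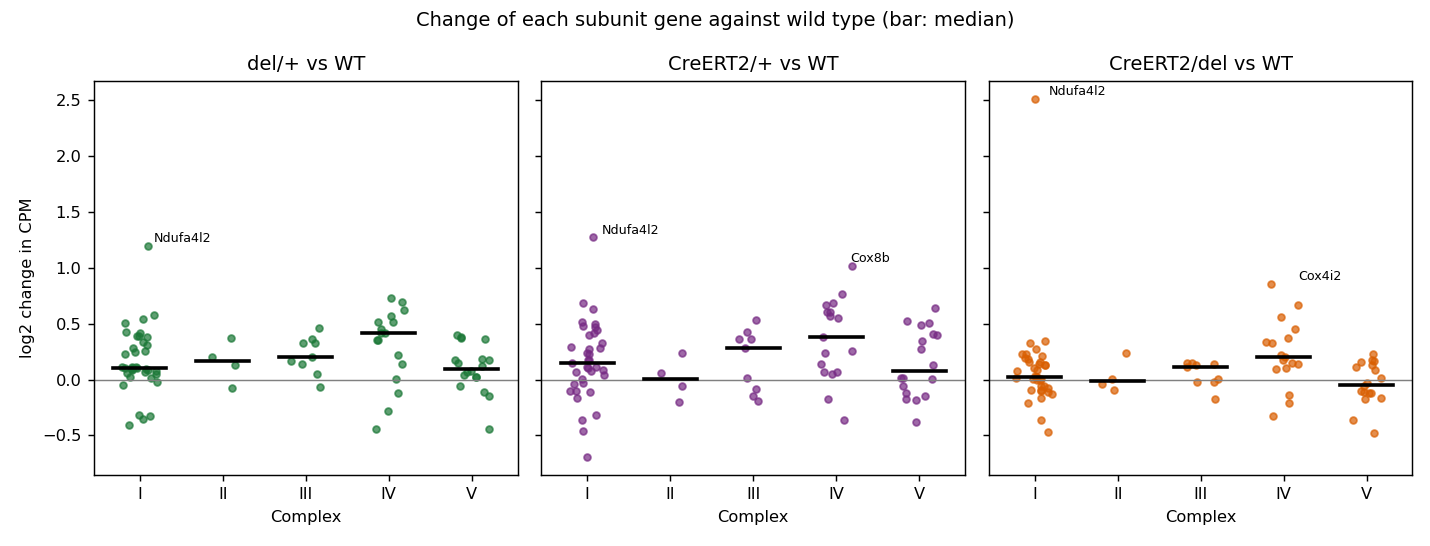
Log2 change in CPM against WT of each of the 85 genes, by complex, for del/+, CreERT2/+ and CreERT2/del; points are genes and bars the medians. Complex IV has the highest median in each panel (0.41, 0.38 and 0.20), and Ndufa4l2 at 2.51 lies apart from the other genes in CreERT2/del; the 3 panels share the WT libraries.

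Among the altered genotypes, CreERT2/del lay below del/+ by a median of −0.11 and below CreERT2/+ by −0.15, and CreERT2/+ lay 0.03 above del/+. The sign of both values that involve CreERT2/+ turned with single libraries. Without CreERT2/+ 4, CreERT2/del lay 0.13 above CreERT2/+ and CreERT2/+ was at −0.27 against del/+. Without CreERT2/+ 3 the same values were −0.40 and 0.24. The median of CreERT2/del against del/+ stayed negative with each library left out, but the other settings gave −0.14 to 0.05. Cox5a, a complex IV subunit, was at 37.6, 42.2, 28.8 and 39.6 CPM in CreERT2/del 1 to 4 and at 66.1, 54.2, 43.8 and 63.8 in del/+ 1 to 4. The groups did not overlap for this 1 gene on the lower side (1.72% of all genes) and for 0 on the higher side (2.47%), and its log2 change was −0.62 ± 0.25 (edgeR adjusted p = 0.904). Uqcrfs1 was the 1 gene lower without overlap in CreERT2/+ than in del/+ (0.883% of all genes), and 0 were higher without overlap (1.44%); its log2 change was −0.25 ± 0.17 (edgeR adjusted p = 0.997). An unadjusted p under 0.05 was reached by 1 gene higher and 1 lower in CreERT2/del against del/+ (2.87% and 2.21% of all genes), by 1 higher and 0 lower against CreERT2/+ (1.62% and 2.35%), and by 0 in CreERT2/+ against del/+ (2.46% and 1.72%). In the interaction 1 gene was positive and 2 negative at that level (2.02% and 2.32%). In the interaction the 85 genes had a median of −0.26 and complex IV −0.69, beside −0.01 for all genes. The lowest p belonged to Ndufc1 (−0.99 ± 0.38) and Cox6a2 (−1.05 ± 0.45), both with an edgeR adjusted p of 0.996, and Cox4i2 was the positive gene (1.66 ± 0.71). Without CreERT2/+ 4 the median of the 85 genes was −0.02 and that of complex IV −0.32. Atp5k, Uqcrb and Sdhd had −0.87 ± 0.43, −0.72 ± 0.52 and −0.23 ± 0.29 (edgeR adjusted p = 0.996 each).

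The mix of complexes within the group does not depend on the scaling factor of a library, but it can differ between libraries of 1 genotype. Complex IV held 16.4%, 17.8%, 17.9% and 17.6% of the summed CPM of the 85 genes in WT 1 to 4. It held 21.3%, 21.0%, 20.9% and 20.7% in del/+ 1 to 4, and 21.5%, 19.1%, 19.0% and 20.2% in CreERT2/del 1 to 4. All libraries of these altered genotypes were above all of WT. In CreERT2/+ 1 to 4 the share was 21.5%, 20.8%, 16.7% and 24.7%, and CreERT2/+ 3 lay in the WT range. Within this genotype it was lowest and highest in the libraries with the lowest and highest summed level. The share is thus not free of the shifts between libraries. The share of complex V was 44.96% to 50.17% in WT, 40.8% to 44.2% in del/+, 39.4% to 51.6% in CreERT2/+ and 42.1% to 45.4% in CreERT2/del. Much of complex V is Atp5b, which held 18.8% ± 2.14 of the RNA of the 85 genes in WT and 13.0% ± 0.969 in del/+ (SD, n = 4). With Atp5b left out of the total, complex IV still held 21.0% to 21.9% in WT, 23.6% to 24.8% in del/+, 21.2% to 27.5% in CreERT2/+ and 22.7% to 24.7% in CreERT2/del. With all of complex V left out, it held 32.3% to 34.0% in WT, 35.4% to 38.2% in del/+, 34.6% to 40.8% in CreERT2/+ and 34.8% to 37.2% in CreERT2/del. The comparison was chosen after the values were seen, and no test was made of it. How often other sets of genes separate in this way was not counted. Complex I held 20.2% to 22.9% in WT and 20.4% to 22.5% in del/+, with overlap. Within complexes I to IV alone it held 39.2% to 41.5% in WT. That was above the 36.6% to 39.0% in del/+ and the 36.5% to 38.6% in CreERT2/+. It overlapped the 38.5% to 39.4% in CreERT2/del. Shares of 1 total are not independent, so this is not a result apart from the higher share of complex IV.

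**Figure D5:**
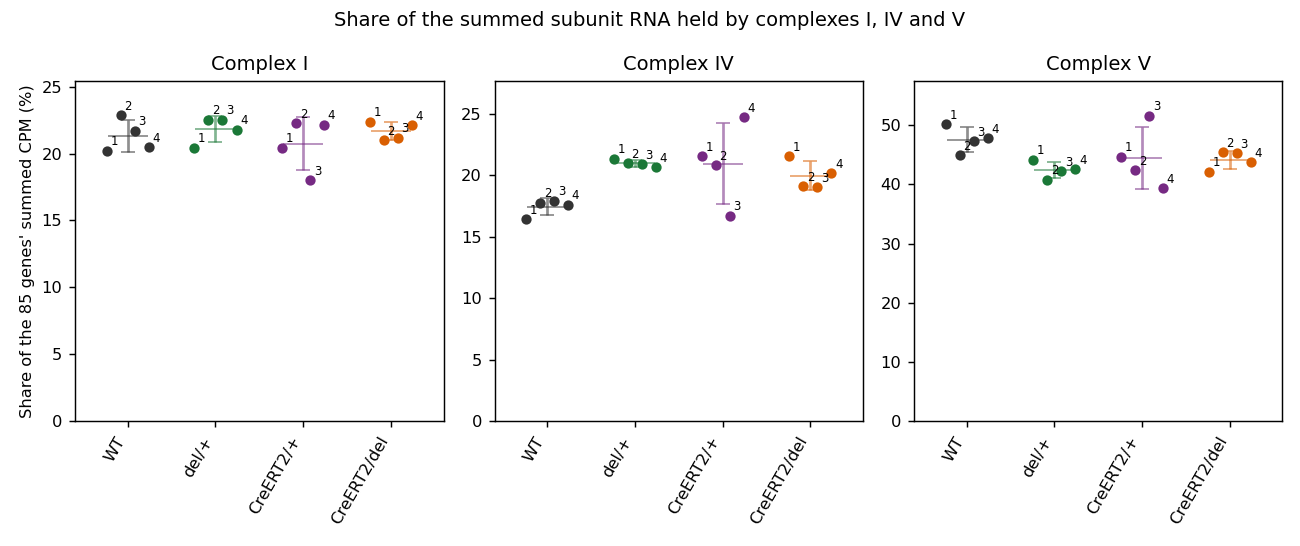
Share of the summed CPM of the 85 genes held by complexes I, IV and V in each library, numbered by replicate, with the mean and SD per genotype (n = 4). The 4 WT libraries are below all del/+ and CreERT2/del libraries for complex IV (16.4% to 17.9% against 19.0% to 21.5%), and CreERT2/+ spans 16.7% to 24.7%.

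Genes that build, regulate or feed the complexes were examined beside their subunits. Of 43 tested assembly factors, 14 regulators of mitochondrial biogenesis and 27 carriers, loose components and citric acid cycle enzymes, 0 passed in any of the 7 comparisons (edgeR), nor did the 13 subunits encoded in mitochondrial DNA. These lists were tested with edgeR alone. In CreERT2/del against WT an unadjusted p under 0.05 was reached by 1 assembly factor higher and 1 lower, by 3 mitochondrially encoded subunits higher and 2 lower, and by 0 regulators or carriers, against 3.13% of all genes higher and 2.53% lower. In that comparison the lowest p of the assembly factors was that of Cox18, a factor that inserts a complex IV subunit into the membrane, with a log2 change of 0.80 ± 0.29 (edgeR adjusted p = 0.51). Among regulators it was Ppargc1b, a coactivator of mitochondrial genes, with 0.64 ± 0.38 (edgeR adjusted p = 0.999), and among carriers the inner membrane carrier Ucp2 with 0.47 ± 0.26 (edgeR adjusted p = 0.97). The mitochondrial mt-Atp8, a complex V subunit, had 1.13 ± 0.40 (edgeR adjusted p = 0.481), and the median of the 13 mitochondrial subunits was 0.27, with 9 higher and 4 lower. Among the lower, the complex I subunits mt-Nd4l and mt-Nd6 had −1.36 ± 0.56 and −1.05 ± 0.46 (edgeR adjusted p = 0.685 and 0.753). The level of mt-Nd4l was low and its groups overlapped. It was at 2.04, 1.44, 6.17 and 1.08 CPM in WT 1 to 4 and 0.816 to 1.52 in CreERT2/del. In the libraries that stood apart, the 14 regulators deviated in both directions, with medians of −0.05, −0.04, 0.06 and −0.02 in CreERT2/+ 3, WT 4, CreERT2/del 3 and CreERT2/+ 4. In CreERT2/+ 3 single regulators ranged from −1.07 to 1.20. Assembly factors had −0.36, −0.34, −0.24 and 0.28 in the same libraries.

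In the authors' deposited table, which tests 14820 genes, 84 of the 85 genes have values and 0 had an adjusted p under 0.05 in any of the 6 pairs of genotypes. In the authors' deposited table the log2 value of Ndufa4l2 for WT over CreERT2/del was −2.50, so CreERT2/del was higher.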

How the data were processed

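The members and gene lists were chosen with earlier results of these data known. Per the labels' protocols, RNA of embryonic hearts went into Ovation RNA-seq system V2 libraries. The deposited table holds raw whole-number counts per gene, which, per the submitters' processing notes, were made with TopHat2 and featureCounts on mouse build mm9. The authors deposited them as whole numbers, and none was an expected count from a model, so no rounding was done. The authors also deposited a log2 fold change and an adjusted p-value for each pair of genotypes, made with edgeR per the submitters' processing notes. They appear only in sentences that say so. No source read here gives tool versions or strand settings, so reads of overlapping or antisense genes and of near-identical paralogs or pseudogenes cannot be told apart. A further 52 columns of normalized or mean values were not used, and 415 genes carry no symbol. Of the 85 genes, 1 is not reported singly here and is left out of the plot of deviations by gene; it stays in all counts, sums and medians.

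Counts were tested with edgeR 4.0.16 in R 4.3.3: default filter on low counts (14612 of 37991 genes kept), TMM scaling, 1 mean per genotype, all 16 libraries and 12 residual degrees of freedom. Adjusted p-values are Benjamini-Hochberg values over all tested genes, threshold 0.05. Levels are CPM on TMM library sizes; RPKM divides them by the deposited length; deviations use log2 CPM with a prior count of 2. The named genes are, in each complex, the one with the lowest p in each comparison with WT and in the interaction, the highest and lowest level per length, a list of tissue forms, and of each pathway list the lowest p; others were chosen after their values were seen. Of the pathway genes, 17 assembly factors were matched by gene identifier and the others by symbol. The procedure was checked on simulated counts. Alternatives were RLE factors, TMM without mitochondrial genes, no filter, a mean CPM of 5, DESeq2 1.42.0, only the groups compared, the replicate number, mitochondrial ribosomal RNA share as a covariate, and leaving out libraries. Libraries range 21436305 to 42731841 counts. The promoters are from RefSeq (GRCm38.p6), and no coordinate was converted between builds.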

Additional observations from a re-analysis of the deposited data

Results flagged for a closer look

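A library far from the other 3 of its genotype was looked for among 29 named genes, the sums of the complexes and their shares, in 160 groups of 4 libraries. The gap to the nearest library, as a share of the group's range, exceeded Dixon's critical value in 4 groups; chance alone gives about 1 in 20 groups. Ndufc1 was at 25.8 CPM in CreERT2/del 3, with 41.4 to 44.5 CPM in the other 3, and that library was also low for most of the 85 genes. Uqcrfs1 was at 39.1 CPM in CreERT2/del 4, with 32.5 to 33.6 CPM in the others. Complex II was summed to 345 CPM in del/+ 2, with 291 to 300 CPM in the others, and held 4.24% of the subunit RNA there, with 3.32% to 3.46% in the others. Sdhb, at 111 CPM in del/+ 2 and 73.6 to 92.6 CPM in the other del/+ libraries, was the highest there of all 16 libraries.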

How the results depend on the processing

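No median of the 85 genes or of a complex moved by more than the spread between replicates under the alternatives run. That spread was wide, because whole libraries shifted, and several medians changed sign within it, as given below. With 0 genes called as reported, there was no called direction that could reverse. The log2 changes of the genes with the lowest p of their complex kept their sign. The count of subunit genes called in CreERT2/del against WT was 1 without the filter on low counts and 1 with DESeq2, against 0 as reported; the gene was Ndufa4l2 in both, with log2 changes of 2.49 and 2.53 and adjusted p-values of 0.0382 and 0.0217. The cause was not tested, and Ndufa4l2 reached the count minimum of the group only through CreERT2/del. The count was 0 in every setting of the other 6 comparisons, and 0 with each library left out in turn. Ndufa4l2 does not pass the filter at a mean CPM of 5 and has no value there. Over all genes the number called in CreERT2/del against WT ranged from 13 to 189, in del/+ against WT from 10 to 120 and in CreERT2/+ against WT from 3 to 73, against 49, 17 and 5 as reported. For the other comparisons these ranges were 2 to 65 for CreERT2/del against del/+, 2 to 92 against CreERT2/+, 0 to 36 for CreERT2/+ against del/+ and 4 to 73 for the interaction. With 1 library left out, the median of the 85 genes ranged from −0.06 to 0.23 in CreERT2/del against WT, from 0.01 to 0.31 in del/+ against WT and from −0.07 to 0.39 in CreERT2/+ against WT. It ranged from −0.22 to −0.03 in CreERT2/del against del/+, from −0.40 to 0.13 against CreERT2/+, from −0.27 to 0.24 in CreERT2/+ against del/+ and from −0.55 to −0.02 in the interaction. The sign of the median thus turned in CreERT2/del against WT, CreERT2/+ against WT and both pairs of CreERT2/+ with another altered genotype. In CreERT2/del against del/+ it turned under the alternatives other than leaving out 1 library, which gave medians from −0.14 to 0.05. Leaving out both CreERT2/+ 3 and CreERT2/+ 4 was chosen after seeing the data. Replicate numbers were not taken to pair the libraries: correlations of deviations were −0.325 to 0.487 for the same number and −0.343 to 0.481 for different numbers, while 8 of 16 libraries correlated best with their own number, a hint from the data and not the design. With the replicate block 0 subunit genes were called in each comparison, 41 genes in all in CreERT2/del against WT, and Ndufa4l2 had a log2 change of 2.73 and an adjusted p of 0.187 there. Depth limits the precision for Ndufa4l2, which had 1 to 43 reads per library.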
